A study of Rattus norvegicus with 12 samples.

Results

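Aquaporins are the membrane channels through which kidney tubules move water, and the V2 receptor is the vasopressin receptor that controls them in the collecting duct. The set described here is 8 genes, Aqp1, Aqp2, Aqp3, Aqp4, Aqp6, Aqp7, Aqp11 and Avpr2, listed by name as kidney aquaporins and the vasopressin V2 receptor. The choice was made with earlier results of these data known. Every probe set annotated to these genes was taken, whatever its signal, which gave 12 of the 31042 probe sets that are not array controls. A probe set is a group of short probes that reads 1 transcript on an Affymetrix array. Of the 12 probe sets, 11 passed the filter on dim probe sets, as did 18625 probe sets of the whole array, and the last, 1 of 3 for Aqp4, is given as levels only.

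Kidney RNA came from 12 male Zucker rats, with 1 array for each rat and 3 rats in each of 4 groups. The groups were obese rats fed chow with rosiglitazone, obese rats fed control chow, lean rats fed chow with rosiglitazone and lean rats fed control chow. Rosiglitazone, an agonist of the nuclear receptor PPARgamma, was given at 3 mg/kg body weight, and feeding lasted 12 weeks. The leptin receptor of obese Zucker rats is mutated, and the animals overeat and become insulin resistant. The labels call the rats a diabetes model and give neither genotypes nor ages.

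In the kidney, Aqp1 carries water across the proximal tubule, the thin descending limb and the vasa recta. In the principal cells of the collecting duct, vasopressin binds the V2 receptor, cAMP rises, and vesicles holding Aqp2 fuse with the membrane facing the urine. Water then leaves the cell through Aqp3 and Aqp4 on the blood side. Aqp7, an aquaglyceroporin, passes water and glycerol in the straight proximal tubule and is also the glycerol channel of fat cells. Aqp11 lies inside proximal tubule cells, and Aqp6 lies in vesicles of acid-secreting intercalated cells.

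The RefSeq promoter table held entries for 7 of the 8 genes, all but Aqp7. The 250 bases before the start site are printed for 4 genes on the GRCr8 assembly, 1 that was lower in obese rats (Aqp1), 2 that were higher (Aqp3 and Avpr2) and 1 with no detected difference (Aqp2). Capitals mark the letters that matched any of 6 short motifs, which were searched on both strands and are spelled out after the sequences.
Aqp1, chr4:85812534-85812783, plus strand: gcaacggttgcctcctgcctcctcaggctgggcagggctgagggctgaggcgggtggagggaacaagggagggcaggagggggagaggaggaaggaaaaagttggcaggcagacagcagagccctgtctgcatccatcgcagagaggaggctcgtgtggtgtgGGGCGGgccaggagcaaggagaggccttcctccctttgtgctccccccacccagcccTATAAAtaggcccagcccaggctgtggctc
Aqp3, chr5:61040684-61040933, minus strand: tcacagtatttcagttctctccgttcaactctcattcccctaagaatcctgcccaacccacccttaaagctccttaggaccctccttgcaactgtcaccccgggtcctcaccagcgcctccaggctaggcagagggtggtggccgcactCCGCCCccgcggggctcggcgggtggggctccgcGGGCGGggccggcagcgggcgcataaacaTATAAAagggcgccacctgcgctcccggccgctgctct
Avpr2, chrX:156784889-156785138, plus strand: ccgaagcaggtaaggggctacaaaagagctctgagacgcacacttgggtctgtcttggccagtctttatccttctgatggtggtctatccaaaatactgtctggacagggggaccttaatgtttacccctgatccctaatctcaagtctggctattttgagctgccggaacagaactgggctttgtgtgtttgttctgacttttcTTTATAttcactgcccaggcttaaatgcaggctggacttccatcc
Aqp2, chr7:132590036-132590285, plus strand: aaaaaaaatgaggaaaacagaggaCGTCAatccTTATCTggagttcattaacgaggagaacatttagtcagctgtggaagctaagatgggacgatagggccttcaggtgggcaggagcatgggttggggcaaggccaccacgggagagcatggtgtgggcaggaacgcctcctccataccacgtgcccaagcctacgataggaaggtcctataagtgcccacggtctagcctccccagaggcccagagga

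The core of the cAMP response element, CGTCA, was found in the Aqp2 window at position -226, counted back from the start site, and in 18.2% of all 33469 promoter windows of that length. A GATA site, AGATAA, lay at -217 of Aqp2 on the opposite strand, and 10.3% of all windows held one. The TATA box, TATAAA, lay at -38 of Aqp3, at -30 of Aqp1 and, on the opposite strand, at -45 of Avpr2, and 12.9% of all windows held it. The GC box, GGGCGG, was found at -101 (opposite strand) and -67 of Aqp3 and at -87 of Aqp1, and in 30.5% of all windows. Among the windows not printed, it lay at -126 of an Aqp4 window (opposite strand) and at -49 of Aqp11. The full cAMP response element, TGACGTCA, which contains the core, occurred in 1.59% of all windows. The PPAR response element, searched as a direct repeat of AGGTCA with 1 base between the copies, occurred in 0.0508% of them. Neither of these longer motifs was in the window of any of the 7 genes. A match is a description of letters and not of a factor's binding. The genes lie on chromosomes 1 (Aqp11), 4 (Aqp1), 5 (Aqp3 and Aqp7), 7 (Aqp2 and Aqp6), 18 (Aqp4) and X (Avpr2). On chromosome 5, Aqp7 and Aqp3 have 0 protein-coding genes between them, and their signals differed between body types in opposite directions.

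All signals had been scaled alike, with trimmed array means of 500.12 to 500.15 and medians of 204 to 239. Of the variance, 29.6% lay on a principal component that parted obese from lean rats. On component 2 (13.6%), the array lean rosiglitazone 3 stood apart at -35.64, against -13.39 to 17.8 for the others. A labelled spike-in control, cre, fell into a higher class of 5 arrays, of which 1 was obese, and a lower class of 7 arrays, of which 5 were obese. The highest signal on the array was 20001 to 23264 in obese rats and 23265 to 30293 in lean rats. The 3' to 5' signal ratio of actin, a measure of RNA integrity, was 1.57 to 2.40 in obese rats and 1.76 to 2.24 in lean rats. Umod, which marks the thick ascending limb of the kidney, had group means of 16981 to 20885 units. Levels of different probe sets are not compared, because each probe set has its own brightness.

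The first comparison asked which water channel genes differed between obese and lean rats. Over both diets, 7 of the 11 tested probe sets, from 6 of the 8 genes, passed an adjusted p of 0.05 in limma, where 14.3% of all tested probe sets passed. The collecting duct genes Aqp3, Aqp4 and Avpr2 were higher in obese rats (3 probe sets, with 7.69% of all probe sets called higher). The proximal tubule genes Aqp1, Aqp7 and Aqp11 were lower in obese rats (4 probe sets, with 6.62% of all called lower). Aqp2 and Aqp6 did not pass. Every obese kidney lay on one side of every lean kidney in 5 of the 11 probe sets, as in 7.3% of all, and groups did not overlap within either diet in 6 of 11, as in 9.95% of all. The median size of the log2 difference was 0.39 over the 11 probe sets and 0.15 over all probe sets. Since the genes were chosen with earlier results known, these counts describe the set and do not test it. In whole kidney, fewer cells of a type and less RNA per cell cannot be told apart.

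**Figure D1:**
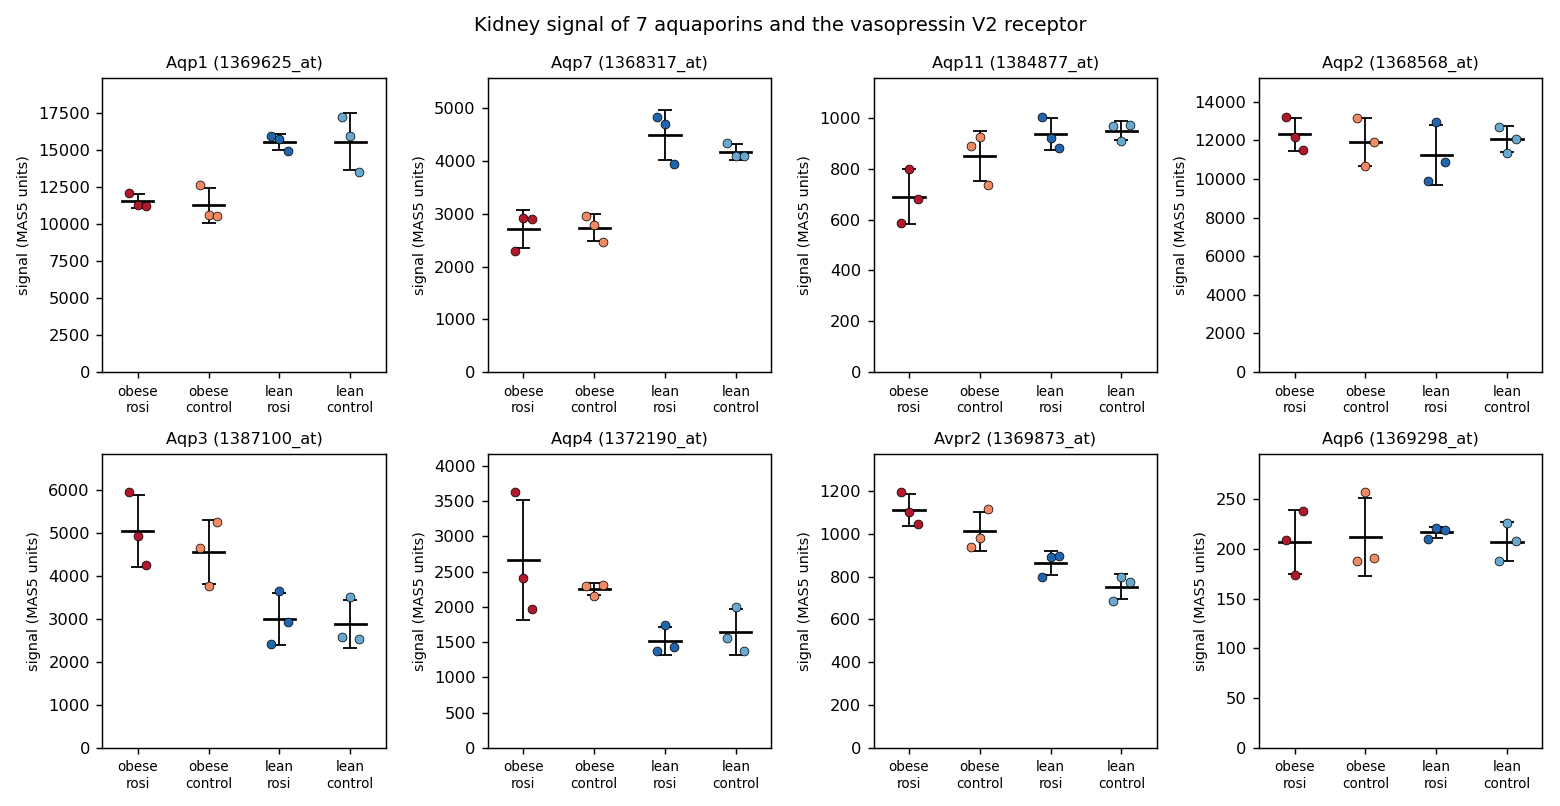
Signal in MAS5 units (vertical axis, linear and starting at 0 in each panel) of the brightest probe set of each of the 8 genes on the 12 arrays (points), in obese rosiglitazone, obese control, lean rosiglitazone and lean control rats, with the group mean (thick bar) and SD (whiskers, n = 3 each). Aqp1, Aqp7, Aqp3 and Avpr2 part obese from lean arrays completely, while Aqp2 and Aqp6 overlap.

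Aqp7, the glycerol and water channel, had signals of 2287, 2927 and 2901 in obese rosiglitazone rats and 2962, 2786 and 2470.1 in obese control rats. It had 4839, 4694 and 3945 in lean rosiglitazone rats and 4337, 4089 and 4086 in lean control rats. Every obese kidney lay below every lean kidney, and the 2 groups of each body type overlapped. Over both diets the log2 change was -0.67 ± 0.08 (SE; 95% interval -0.84 to -0.50), a level 1.59-fold lower in obese rats, with a limma adjusted p of 0.000112. It was -0.73 on rosiglitazone (adjusted p = 0.00242) and -0.61 on the control diet (adjusted p = 0.00769). Fat cells also carry Aqp7. Over both diets, 9 of 13 tested adipocyte markers fell in obese rats and 1 rose. Of all probe sets, 6.62% were called lower and 7.69% higher. The summed adipocyte signal was 15903 to 16748 in obese rosiglitazone, 10373 to 11347 in obese control, 20847 to 35151 in lean rosiglitazone and 12635 to 19068 in lean control rats, and no defining marker was at 0 (Adipoq averaged 500.4 to 947 units by group). The part of fat cells in the Aqp7 difference was not tested. Aqp7 averaged 2705 ± 362 in obese rosiglitazone and 2739 ± 249 in obese control rats (SD, n = 3 each). The adipocyte list includes Fabp4 and Ucp1, which were higher with rosiglitazone, so its sum is not a count of fat cells.

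Aqp1, the main water channel of the proximal tubule, was read by 2 probe sets. The brighter, 1369625_at, had signals of 12106, 11299 and 11217 in obese rosiglitazone rats and 12632, 10567 and 10545 in obese control rats. Lean rosiglitazone rats had 15924, 15723 and 14910.4 and lean control rats had 17224, 15934 and 13481. All 6 obese kidneys lay below all 6 lean kidneys. The log2 change over both diets was -0.45 ± 0.07 (SE; 95% interval -0.59 to -0.30), a level 1.36-fold lower in obese rats, with a limma adjusted p of 0.000791.

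The other Aqp1 probe set, 1387651_at, averaged 7554 ± 807 in obese rosiglitazone, 6861 ± 602 in obese control, 10028 ± 771 in lean rosiglitazone and 10286 ± 1007 in lean control rats (SD, n = 3 each). Its obese and lean kidneys did not overlap either. Its log2 change over both diets was -0.50 ± 0.07 (SE), with a limma adjusted p of 0.000604. The correlation between the probe sets over the 12 arrays was 0.92, a description that includes the difference between body types. Both are bright probe sets, and the highest signal on the array was itself lower in obese rats. When all arrays were given the same distribution of signals by quantile normalization, the changes were -0.25 and -0.33 (adjusted p = 0.00074 and 0.000869), smaller by over 1.5 times.

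Aqp11, which lies in the endoplasmic reticulum of proximal tubule cells, had signals of 587, 801 and 682 in obese rosiglitazone rats and 889.8, 923 and 736 in obese control rats. Lean rosiglitazone rats had 1005, 922 and 882 and lean control rats had 969, 907 and 972. On rosiglitazone every obese kidney lay below every lean kidney, whereas on the control diet the groups overlapped. The log2 change over both diets was -0.30 ± 0.09 (SE), with a limma adjusted p of 0.0361. It was -0.44 on rosiglitazone (adjusted p = 0.0609) and -0.16 on the control diet (adjusted p = 0.535), and neither passed. After quantile normalization the change on rosiglitazone was -0.49 and passed (limma adjusted p = 0.0415), while that on the control diet did not (-0.19, adjusted p = 0.473). The call over both diets was lost when spike-in class was a covariate (adjusted p = 0.121), without a filter, with median centring, with plain eBayes, and when any 1 of 7 rats was left out (obese rosiglitazone 1 or 3, obese control 3, lean rosiglitazone 1 or 2, lean control 1 or 3).

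Aqp3, the channel on the blood side of principal cells, had the highest positive change of the 11 probe sets over both diets. Its signals were 5942, 4937 and 4259.6 in obese rosiglitazone rats and 4656, 3761 and 5254 in obese control rats. They were 2421, 3639 and 2934 in lean rosiglitazone rats and 2578, 3517 and 2539.6 in lean control rats. The lowest obese kidney lay above the highest lean kidney. The log2 change over both diets was 0.71 ± 0.12 (SE; 95% interval 0.44 to 0.98), a level 1.63-fold higher in obese rats, with a limma adjusted p of 0.00213.

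Aqp4, which shares the blood-side membrane with Aqp3, was read by 3 probe sets that did not give the same result. Probe set 1372190_at had 3624, 2406 and 1976 in obese rosiglitazone rats and 2296, 2160.3 and 2304 in obese control rats. It had 1368, 1739 and 1434 in lean rosiglitazone rats and 1558, 2001 and 1372 in lean control rats. Obese and lean kidneys did not overlap within either diet, and obese rosiglitazone 1 was the highest of all. The log2 change was 0.62 ± 0.13 (SE), 1.54-fold, with a limma adjusted p of 0.00725 over both diets. Probe set 1368981_at averaged 807 ± 96.6 in obese rosiglitazone, 739.8 ± 78.9 in obese control, 679 ± 86.1 in lean rosiglitazone and 599 ± 28.3 in lean control rats (SD, n = 3 each), and its change of 0.27 did not pass (adjusted p = 0.0636), although it did without lean rosiglitazone 2 (0.0394). Probe set 1387397_at lay below the filter at 75.8 to 153 units, next to bacterial control probe sets that reached 124. Over the 12 arrays the first 2 probe sets correlated at 0.76, and the dim one correlated with them at 0.34 and 0.44.

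Avpr2, the vasopressin receptor that starts this response, had signals of 1193, 1099.6 and 1045 in obese rosiglitazone rats and 939, 981 and 1115 in obese control rats with probe set 1369873_at. Lean rosiglitazone rats had 797, 893 and 897 and lean control rats had 687, 797 and 777. No obese kidney was as low as any lean kidney. The log2 change was 0.39 ± 0.08 (SE; 95% interval 0.23 to 0.55), 1.31-fold, with a limma adjusted p of 0.00376 over both diets. The dimmer Avpr2 probe set, 1371265_at, had 212 to 341 in obese rosiglitazone, 199 to 368 in obese control, 272 to 342 in lean rosiglitazone and 154 to 248 in lean control rats. Its groups overlapped and its log2 change was 0.17 (95% interval -0.21 to 0.55, adjusted p = 0.587), so that the Avpr2 call rests on 1 of 2 probe sets, which correlated at 0.47 over the 12 arrays.

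Aqp2, the channel that vasopressin moves to the urine-side membrane, had 13229.8, 12201 and 11526 in obese rosiglitazone rats and 13164, 10652 and 11935 in obese control rats. It had 9919.5, 12939.9 and 10872 in lean rosiglitazone rats and 12721, 11374 and 12060.2 in lean control rats. All 4 groups overlapped. The log2 change over both diets was 0.06 (95% interval -0.10 to 0.22), with a limma adjusted p of 0.661. Aqp2 is bright too, and after quantile normalization its change was 0.25 and passed (adjusted p = 0.0195). By diet it was then 0.36 on rosiglitazone, which passed (limma adjusted p = 0.0412), and 0.15 on the control diet, which did not (adjusted p = 0.421). Aqp6, the channel of intercalated cell vesicles, had 174 to 257 units over the 12 arrays and a log2 change of -0.03 (95% interval -0.30 to 0.25, adjusted p = 0.925), with overlapping groups.

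**Figure D2:**
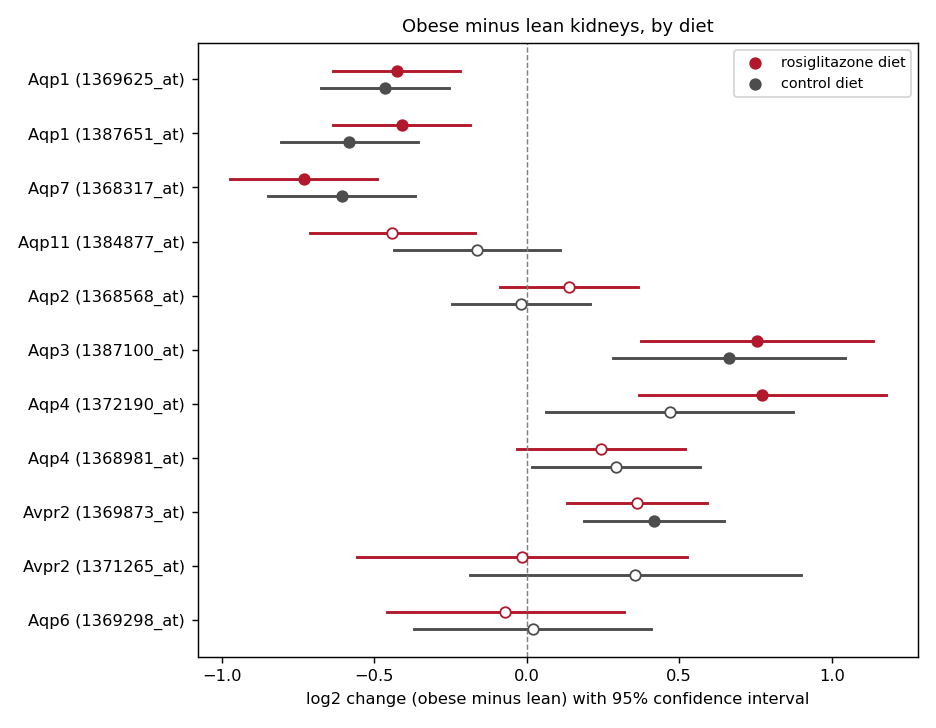
Log2 change, obese minus lean (horizontal axis), of each of the 11 tested probe sets on rosiglitazone (red) and on the control diet (grey), with 95% intervals from limma (lines) and filled points where the adjusted p was under 0.05. Aqp3, Aqp4 and Avpr2 1369873_at lie to the right of 0 and Aqp1, Aqp7 and Aqp11 to the left on each diet, and both Aqp2 intervals include 0.

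By diet, 5 of 11 probe sets passed on rosiglitazone and 5 of 11 on the control diet, where 5% and 4.74% of all probe sets passed. The obese and lean groups did not overlap in 7 of 11 on rosiglitazone and 7 of 11 on the control diet, as in 23.3% and 25.5% of all probe sets. Both Aqp1 probe sets, Aqp7 and Aqp3 passed on each diet. On rosiglitazone, Aqp1 1387651_at (-0.41, limma adjusted p = 0.0376) did not pass after quantile normalization (-0.23, adjusted p = 0.088) or when spike-in class was a covariate (-0.28, adjusted p = 0.097). Aqp3 had a log2 change of 0.75 on rosiglitazone (limma adjusted p = 0.0263) and 0.66 on the control diet (adjusted p = 0.0478). Aqp4 1372190_at had 0.77 on rosiglitazone, which passed (adjusted p = 0.0319), and 0.47 on the control diet, which did not (adjusted p = 0.188). Avpr2 1369873_at had 0.36 on rosiglitazone, which did not pass (adjusted p = 0.0699), and 0.42 on the control diet, which did (adjusted p = 0.0409). That Avpr2 call was lost after quantile normalization (limma adjusted p = 0.0544) and when spike-in class was a covariate (0.0592). The Aqp3 call on the control diet was kept under both, but lost with median centring (limma adjusted p = 0.125) and with a replicate block (0.0738). The pairs of values by diet do not show a difference between diets, since no probe set passed the test of that difference given below. With 3 rats in each group, leaving out single rats ended several of these calls, and the remaining count fell as low as 1 on rosiglitazone (without lean rosiglitazone 1) and 2 on the control diet (without obese control 2, obese control 3 or lean control 1). It was 2 on rosiglitazone without obese rosiglitazone 1, and 3 without obese rosiglitazone 2 or 3 or lean rosiglitazone 2 or 3. On the control diet it was 3 without obese rosiglitazone 2 or 3, obese control 1 or lean control 2 or 3, since all groups share 1 estimate of the spread. Calls over all probe sets dropped too, to 327 on the control diet without obese control 2 and 535 on rosiglitazone without lean rosiglitazone 1. Over both diets, in contrast, no single rat ended the call of either Aqp1 probe set, Aqp3, Aqp7, Aqp4 1372190_at or Avpr2 1369873_at.

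Within the 7 arrays of the lower spike-in class, the changes over both diets were 0.78 for Aqp3 (limma adjusted p = 0.0257), -0.59 for Aqp7 (0.024), -0.36 and -0.40 for Aqp1 (0.00982 and 0.0333), 0.77 for Aqp4 1372190_at (0.0612) and 0.36 for Avpr2 1369873_at (0.0939). Aqp4 and Avpr2 kept their size there but missed the threshold. The higher class held 1 obese and 2 lean rats on the control diet, where Aqp3 differed by 0.63, Aqp7 by -0.51, Aqp1 by -0.39 and -0.53 and Avpr2 by 0.34, and none passed. With the class as a covariate over all 12 arrays, all 6 of these probe sets passed. Without lean rosiglitazone 3, the array that stood apart, the changes were 0.71 for Aqp3, -0.71 for Aqp7, -0.46 and -0.52 for Aqp1, 0.60 for Aqp4 and 0.40 for Avpr2, and all 6 passed.

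Aqp3 and Aqp2 serve the same cells, so their signals were also set against each other within each array, which removes any scaling factor of the array. The Aqp3 signal divided by the Aqp2 signal was 0.354 to 0.45 in obese rats and 0.204 to 0.31 in lean rats, and the 2 ranges did not overlap. On the log2 scale the ratio was 0.65 higher in the 6 obese rats than in the 6 lean rats, a description of 2 genes chosen with their changes known. After quantile normalization, the changes were 0.79 for Aqp3 and 0.25 for Aqp2, so that they lay closer together. The ratio shows unequal change of the signals and not which of them changed.

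**Figure D3:**
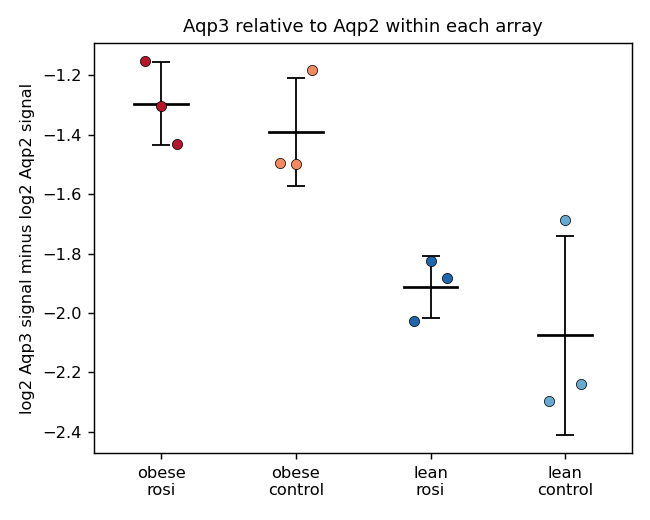
Log2 Aqp3 signal minus log2 Aqp2 signal (vertical axis) on each of the 12 arrays (points) by group, with the group mean (thick bar) and SD (whiskers, n = 3 each). All 6 obese kidneys lie above all 6 lean kidneys.

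The other genes of the pathway were followed as lists. Of 12 tested genes of principal cell transport and its regulators, 8 rose in obese rats and 0 fell, beside 7.69% of all probe sets called higher over both diets. The list's median log2 change was 0.38, against 0.03 over all probe sets. The smallest p-values were those of Sgk1 (0.73, adjusted p = 0.000324), the aldosterone-induced kinase, Nr3c2 (0.46, adjusted p = 0.00158), the mineralocorticoid receptor, and Tmem45b (0.40, adjusted p = 0.00432). Scnn1b, which encodes part of the sodium channel ENaC, had a log2 change of 0.46 (adjusted p = 0.00583). Of the 6 principal cell markers, 2 rose and 0 fell (median 0.32, with 7.69% of all called higher). All of these markers but Gata3 are also in the transport list, so the 2 lists share genes and are not separate evidence. The summed signal of the markers was 15351 to 16296 in obese rosiglitazone and 15845 to 17393 in obese control rats. It was 12159.6 to 15056 in lean rosiglitazone and 10874 to 14585 in lean control rats. Obese and lean kidneys thus did not overlap in that sum, which was higher in obese rats, as were Aqp3, Aqp4 and Avpr2. Aqp2, of the same cells, had a log2 change of 0.06 that did not pass (limma adjusted p = 0.661). Within obese rats the sum averaged 15972 on rosiglitazone and 16747 on control chow. There Aqp3 averaged 5046 and 4557, Aqp4 1372190_at 2669 and 2254, and Avpr2 1369873_at 1113 and 1012. The part of the sum in the differences of these genes was not tested. Positive medians over both diets were not particular to principal cells. Intercalated cell markers had 2 of 7 called higher and 0 lower (median 0.23). Distal convoluted tubule markers had 1 of 2 called higher (median 0.58) and podocyte markers 1 of 4 (median 0.56), with 0 lower in each. Thick ascending limb markers had 3 of 7 called higher and 1 lower (median -0.01). Of all probe sets, 7.69% were called higher and 6.62% lower.

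Between the receptor and the channel, the shares of genes called were near the 14.3% of all probe sets. Of 30 tested genes of the V2 receptor and cAMP pathway, 2 rose and 1 fell (median 0.03). Gnas, the stimulatory G protein subunit that couples the receptor to adenylyl cyclase, fell by 0.34 (adjusted p = 0.00446). Crem, a cAMP-responsive transcription factor, rose by 0.57 (adjusted p = 0.0352) and Gnai2, an inhibitory G protein subunit, by 0.30 (adjusted p = 0.0382). Of 29 tested genes of Aqp2 vesicle traffic and turnover, 2 rose and 2 fell (median -0.02), again near 14.3%, so that neither count is a result about its list. The called vesicle genes were Rab3d (0.62, adjusted p = 0.0172) and Rab5a (0.31, adjusted p = 0.0231), small GTPases of vesicles, Msn (-0.29, adjusted p = 0.0225), which links membrane to actin, and Cltc (-0.22, adjusted p = 0.0231), the clathrin heavy chain.

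Among 9 tested genes of the medulla and urine concentration, 3 rose and 0 fell (median 0.26), beside 7.69% of all probe sets called higher. They were Cd9 (0.50, adjusted p = 0.0025), a tetraspanin, Slc14a2 (0.61, adjusted p = 0.0112), the urea transporter of the inner medullary collecting duct, and Ptger3 (0.39, adjusted p = 0.0228), a prostaglandin E receptor. Ptger3 was also the single call among 8 tested receptors of other hormones acting in the collecting duct (median 0.23). That share is near the 14.3% of all probe sets called, so the count is not a result about this list. Of the other aquaporins, 5 were on the array and 1 passed the filter, Aqp12a, whose log2 change of -0.28 did not pass (adjusted p = 0.138).

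On the proximal side, 7 of 10 tested proximal tubule markers fell and 1 rose (median -0.38), beside 6.62% of all probe sets called lower and 7.69% called higher. The smallest p-values were those of Slc13a3 (-0.89, adjusted p = 2.52e-05), a dicarboxylate transporter, Cubn (-0.49, adjusted p = 0.000261), the endocytic receptor cubilin, and Slc34a1 (-0.38, adjusted p = 0.00132), the sodium phosphate cotransporter. The marker that rose was Slc5a2, the sodium glucose cotransporter (2.56, adjusted p = 0.0414). The summed proximal tubule signal was 52432 to 56636 in obese rosiglitazone, 52261 to 59234 in obese control, 64989 to 77980.2 in lean rosiglitazone and 64313 to 78380.4 in lean control rats. It was lower in obese rats, as were Aqp1, Aqp7 and Aqp11, and did not overlap between body types. Its part in their differences was not tested. Endothelium of the vasa recta carries Aqp1, and of 8 tested endothelial markers 0 passed over both diets (limma), where 14.3% of all probe sets passed. Their median was 0.45 on rosiglitazone, with 8 of 8 positive and 1 called, where 5% of all probe sets were called. It was -0.03 on the control diet, with 2 of 8 positive and 0 called, where 4.74% of all were called. Red blood cells also carry Aqp1. Over both diets, 2 of 3 tested red blood cell genes rose, beside 7.69% of all probe sets called higher. They were Hbb (0.75, limma adjusted p = 0.0443) and Alas2 (0.75, adjusted p = 0.0166). On rosiglitazone 2 of the 3 were called (median 1.20), where 5% of all probe sets were. On the control diet 0 were called (median 0.02), where 4.74% of all were. The part of either cell type in the Aqp1 difference was not tested.

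**Figure D4:**
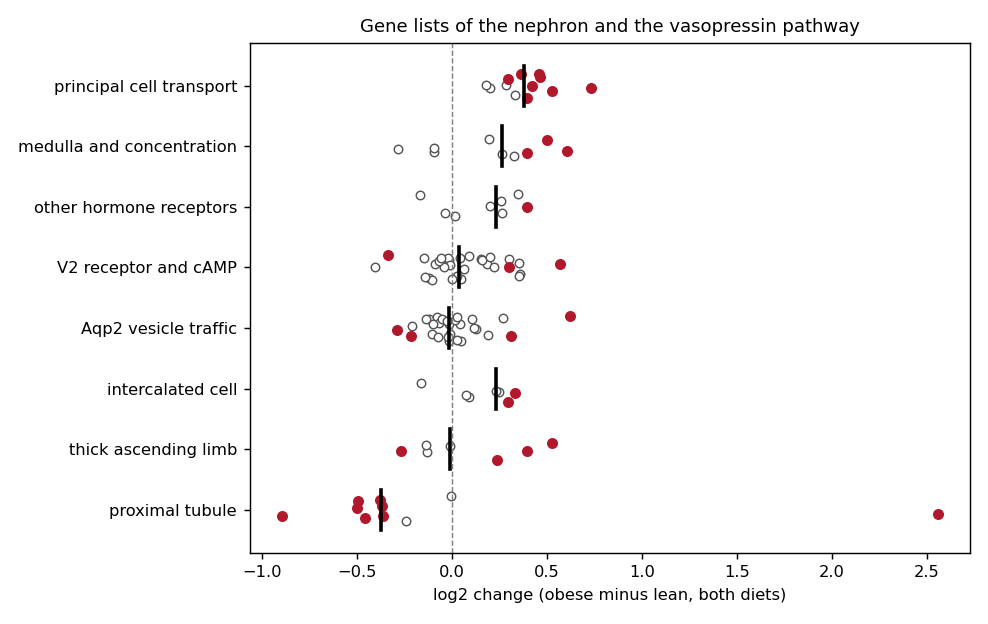
Log2 change, obese minus lean over both diets (horizontal axis), of every tested gene in 8 of the gene lists (points), with the list median (black bar) and filled points for genes past an adjusted p of 0.05. Genes of principal cell transport lie above 0 and proximal tubule markers mostly below 0, while the V2 receptor and vesicle traffic lists lie on both sides.

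The series title asks about rosiglitazone, and none of the 11 tested probe sets passed the limma test of rosiglitazone against control. In obese rats 0 of 11 passed, where 0.0698% of all probe sets did, and 1 had an unadjusted p under 0.05, as did 4.92% of all. In lean rats 0 of 11 passed, where 0.00537% of all probe sets did, and 1 had an unadjusted p under 0.05, as did 4.79% of all. Over both body types 0 of 11 passed, where 0.0591% of all probe sets did, and 2 had an unadjusted p under 0.05, as did 5.08% of all. The log2 changes lay between -0.30 and 0.21 in obese rats, between -0.11 and 0.58 in lean rats and between -0.16 and 0.39 over both.

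The intervals say how large a drug effect these arrays could have missed. Over both body types, the change with rosiglitazone was 0.04 for Aqp7 (95% interval -0.13 to 0.21), -0.03 for Aqp2 (95% interval -0.19 to 0.13), and 0.02 and 0.05 for the Aqp1 probe sets (95% intervals -0.13 to 0.17 and -0.11 to 0.21). For Aqp3 it was 0.10 (95% interval -0.17 to 0.37). Avpr2 had the smallest unadjusted p-values, with changes of 0.39 for 1371265_at (unadjusted p = 0.0448, limma adjusted p = 0.975) and 0.16 for 1369873_at (unadjusted p = 0.0482, limma adjusted p = 0.978). In lean rats alone both Avpr2 probe sets had every rosiglitazone kidney above every control kidney, a pattern that 8.54% of all probe sets showed in either direction. In obese rats the smallest unadjusted p was that of Aqp11, which averaged 689.8 ± 107 on rosiglitazone and 849.7 ± 99.7 on control chow (SD, n = 3 each), a log2 change of -0.30 (unadjusted p = 0.0327, limma adjusted p = 0.952), with overlapping kidneys.

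**Figure D5:**
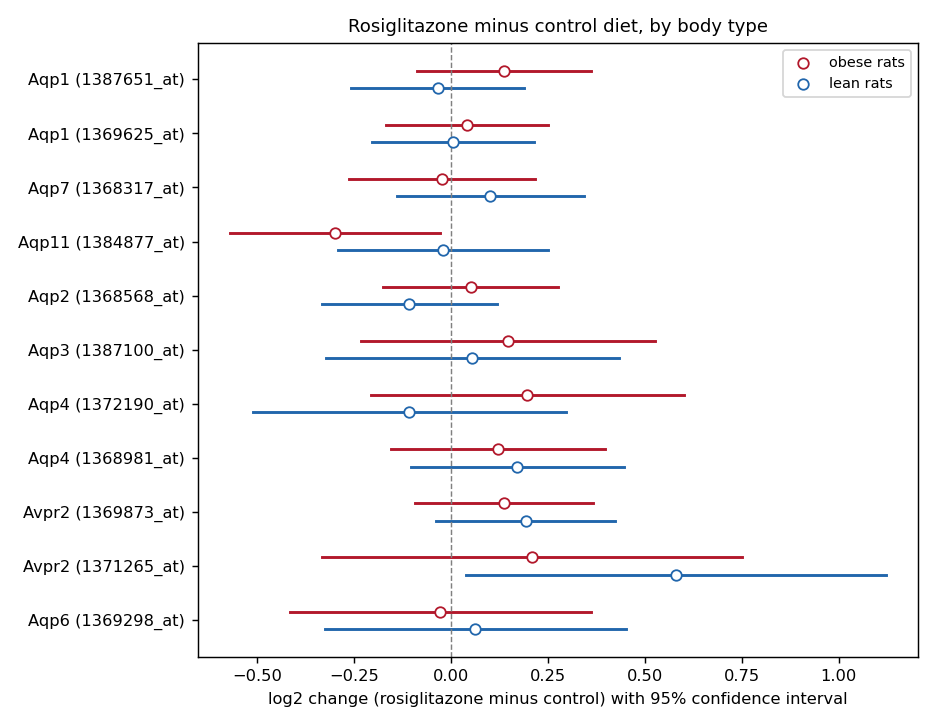
Log2 change, rosiglitazone minus control (horizontal axis), of each of the 11 tested probe sets in obese rats (red) and in lean rats (blue), with 95% intervals from limma (lines) and open points where the adjusted p was not under 0.05. The intervals include 0 except those of Aqp11 in obese rats and Avpr2 1371265_at in lean rats, and every point is open.

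Some fat cell genes differed with rosiglitazone in the same kidney samples. Of 13 tested adipocyte markers, 2 rose with rosiglitazone over both body types and 0 fell, where 0.0591% of all probe sets passed. Fabp4, the fat cell fatty acid binding protein and a PPARgamma target, changed by 2.42 (limma adjusted p = 0.00324). Ucp1, the uncoupling protein of brown fat, changed by 2.10 (limma adjusted p = 0.0456). No gene of the other lists passed in that comparison. In whole kidney, more fat cells and more RNA per fat cell cannot be told apart. The test of whether rosiglitazone acted differently in obese and lean rats gave 0 of 11 calls in limma, where 0% of all probe sets passed. An unadjusted p under 0.05 was found in 0 of 11, against 4.31% of all, with differences of -0.37 to 0.30 and adjusted p-values of 0.992 to 0.995. The intervals of that difference were wide, for example -0.44 to 0.63 for Aqp3 and -0.46 to 0.21 for Aqp7.

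Across the 12 arrays, the genes whose log2 signals ran most alike were found for each member among 10438 genes by Pearson correlation, a description in which body type, array and overall signal are shared. For Aqp4 the nearest was Slc14a2, with a correlation of 0.95 over the 12 arrays and 0.97 after group means were removed. For Aqp3 it was Cgnl1 (0.95, and 0.86 after group means), and for Avpr2 Mecom (0.97, and 0.88). For Aqp2 it was Top1 (0.90, and 0.90), while Anxa4 reached 0.89 and 0.95. For Aqp1 it was Bhmt2 (0.99, and 0.92), for Aqp7 Glud1 (0.98, and 0.90), for Aqp11 Eci2 (0.95, and 0.84) and for the dim Aqp6 Ing3 (0.82). Among the members, Aqp3 correlated with Aqp4 at 0.93 (0.82 after group means) and with Avpr2 at 0.90 (0.73). Aqp1 and Aqp7 correlated at 0.88, and at 0.25 once group means were removed, so that their likeness lay mostly in the difference between groups. Aqp7 and Aqp11 correlated at 0.80 and, after group means, at 0.83.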

How the data were processed

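Kidney RNA of 12 rats was measured on Affymetrix arrays, 1 array per rat. RNA had been isolated with Trizol and biotin-labelled by an Enzo kit, per the labels. The authors made the deposited signal intensity values, which are linear, with MAS5, per the submitters' processing notes. Its version and scaling target were not given there. Values were used as deposited, since the trimmed array means lay between 500.12 and 500.15.

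Of 31099 probe sets, the 57 array controls were left out. The platform annotation, which can be old, gave 1 symbol to 20826 of the remaining 31042, several to 436 and none to 9780, and no probe set of the 8 genes carried several. Signals were turned to log2 after an offset of 16 was added, which understates changes of dim probe sets, and probe sets with a mean under the 40th percentile (7.32) were left out. All 12 arrays entered 1 model with 4 group means and 8 residual degrees of freedom (limma 3.58.1, statmod 1.5.0, R 4.3.3, eBayes with trend and robust settings). Benjamini-Hochberg adjustment ran over 18625 probe sets within each of 7 comparisons, and adjusted p-values under 0.05 were called. They measure the spread between rats, and the number of arrays limits the precision. The procedure was also run on simulated data with independent noise, and no result given here rests on that run.

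The 8 genes, the gene lists (with the brightest probe set standing for each gene) and the naming rule were chosen with earlier results of these data known. The rule names every member, from each list up to 3 called genes of smallest p, and some genes as checks. Slc5a2 and Cltc were named after their values were seen. Promoter sequences are RefSeq's on GRCr8, scanned with Python 3.11.15. Alternatives were offsets of 1 and 64, no filter or the 60th percentile, quantile normalization, median centring, plain eBayes, the spike-in class as a covariate, a replicate block and each array left out. Fits within a spike-in class were added after the data were seen.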

Additional observations from a re-analysis of the deposited data

How the results depend on the processing

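Over both diets, the number of the 11 probe sets called for obese against lean rats, 7, was 4 within the lower spike-in class. On the control diet the number, 5, was 3 without a filter, 2 with median centring, 2 with plain eBayes, 0 within the higher class, 0 within the lower class and 2 to 5 when single rats were left out. On rosiglitazone it was also 5, and 1 with median centring, 1 with plain eBayes, 1 within the lower class and 1 to 5 when single rats were left out. Calls over all tested probe sets dropped under these settings as well. On the control diet they went from 882 to 516 with median centring and 548 with plain eBayes. They were 327 without obese control 2. On rosiglitazone they went from 932 to 493 with median centring and 589 with plain eBayes. They were 469 without obese rosiglitazone 2. The comparisons of rosiglitazone with control gave 0 calls among the 11 probe sets under every alternative run.

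The changes below turned sign under at least 1 alternative, and none was called under either sign. On the control diet, the obese minus lean change of Aqp2 was -0.02, but 0.15 after quantile normalization, 0.011 with the class as covariate, 0.13 within the higher class and -0.094 to 0.058 when single rats were left out. That of Aqp6 was 0.02, but -0.026 after quantile normalization, -0.029 with median centring, -0.0092 with the covariate, -0.13 within the higher class and -0.12 to 0.094 when single rats were left out. Leaving out single rats also gave -0.17 to 0.041 for Aqp6 and -0.12 to 0.20 for Avpr2 1371265_at on rosiglitazone, -0.094 to 0.030 for Aqp6 over both diets, and -0.081 to 0.015 for Aqp2 and -0.027 to 0.066 for Aqp1 1369625_at in the rosiglitazone change over both body types. The rosiglitazone change of Aqp7 over both body types was 0.04, and -0.0079 within the lower class. The difference of rosiglitazone effects between body types was 0.09 for Aqp3, but -0.038 within the lower class and -0.061 to 0.24 when single rats were left out, and -0.12 for Aqp7, but 0.086 within the lower class. Rosiglitazone changes within 1 body type also turned, among them Aqp4 1372190_at (0.20 in obese rats, lowest alternative -0.047).

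Replicate numbers are shared across groups in the labels, but nothing there says that they pair rats. Deviations from the group mean correlated at -0.18 to 0.18 in 18 same-numbered pairs and at -0.22 to 0.21 in 36 other pairs, so the numbers were not taken as pairs. With a replicate block the calls among the 11 probe sets were 7 over both diets, 5 on rosiglitazone and 4 on the control diet. Aqp3 was lost on the control diet, and rosiglitazone against control gave 0 calls. Over all tested probe sets, in the same order, the calls were 2678, 1002 and 961 with the block. Without it they were 2665, 932 and 882, so the loss of Aqp3 did not come with fewer calls over all. Dim probe sets (Aqp6, Avpr2 1371265_at and Aqp4 1387397_at) lie closest to the bacterial controls and limit what can be said of them.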

Other observations

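Aqp9, the glycerol and water channel of liver, lay below the filter and was singled out after its values were seen. Its signal was 15.7, 16 and 42.6 in obese rosiglitazone rats and 28.9, 16.6 and 17.6 in obese control rats. It was 81.1, 62.5 and 28.7 in lean rosiglitazone rats and 16.7, 19.4 and 14.1 in lean control rats, so that the lean groups did not overlap. Bacterial control probe sets on the same arrays reached 124 units, and no test was made. The other dim aquaporins had 12.5 to 103 units (Aqp5), 39 to 160.03 units (Aqp8) and 3.25 to 36.3 units (Mip) over the 12 arrays.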
